A study of Mus musculus with 6 samples.

Results

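The subject is a set of interferon-stimulated effector genes in A20 cells, a B lymphoma line from a BALB/c mouse. The set was given as 44 gene symbols, and every probe set that the platform annotation assigns to one of them alone was taken, on all 6 arrays. That gave 42 genes with 72 probe sets, of 18194 genes on the array. Ifi44 had no such probe set, and Isg15, the ubiquitin-like protein of the response, has only a probe set that is listed under a second symbol as well, so no value is given to either gene.

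The study asked how TGF-β changes gene expression in these cells and which of its effects need the kinase JNK, which SP600125 inhibits. Each of 6 conditions had 1 array. TGF-β was given with SP600125 for 12 h and for 24 h, and without drug for 12 h and for 24 h. The others were SP600125 alone for 24 h and unstimulated cells. The titles of all conditions without SP600125 name DMSO. In the 12 h arm with drug the cells had 12 h of SP600125, against 24 h on its unstimulated array. All arrays are of 1 cell line grown in serum, doses are not stated in the labels, and separate cultures are not mentioned.

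Interferons bind receptors that act through JAK kinases, STAT proteins and IRF9, and the resulting complex binds a DNA element called the ISRE in front of its target genes. Those targets sense viral RNA and DNA, degrade or edit RNA, trap viral particles and membranes, and tag proteins with ISG15. Several of them, such as Usp18, also limit the response. B cells respond to interferon and many of these genes are expressed at a low level without infection.

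A value is a probe set's signal, a linear intensity, and a gene stands for its brightest probe set. For differences, signals under a floor of 74.2, the median signal of the table, were raised to it, so a change from the floor is written "at least". The arrays held 7 of 7 measured B cell markers above the floor throughout, against 0 of 7 markers of T and NK cells, 0 of 6 of fibroblasts, 1 of 3 of erythroid cells and platelets, 3 of 8 of myeloid cells and 2 of 4 of plasmacytoid dendritic cells, a list that holds Bst2 of the set. The summed signal of the B cell markers lay between 44094 and 74468 and that of the plasmacytoid dendritic markers between 3172 and 4515. In the drug arm the myeloid sum was 1118 after 12 h and 1227 after 24 h of TGF-β, against 922 with SP600125 alone, and in the other arm it was 1649.6 and 2487, against 1217 in unstimulated cells. It was thus higher with TGF-β in both arms. So was the B cell sum, at 56202 and 56990 against 44094 with drug, and 64341 and 74468 against 55883 without. Of the myeloid markers Cd68 rose at 24 h, by 1.13 ± 0.25, and fell by 1.27 on the log2 scale with SP600125. Adgre1 also fell with SP600125, by 0.83, and its 24 h effect of 0.63 ± 0.26 did not pass. Csf1r and Lyz2, at 0.31 ± 0.23 and 0.09 ± 0.23 at 24 h, did not pass either. Cd14, Itgam, S100a8 and S100a9 were under the floor on every array. The part of other cells in the results was not tested. The TGF-β array at 24 h with drug differed from the rest, with an 18S ribosomal RNA signal of 5878 against 507 to 882 on the other 5. Its ratios of 3′ to 5′ signal were also the highest, 1.89 against 1.25 to 1.51 for actin and 0.98 against 0.78 to 0.88 for Gapdh. So were its median signal, 80.9 against 69.3 to 76.1, and its genes above the floor, 11288 against 10448 to 10860.

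Of the 42 genes, 21 were above the floor on all 6 arrays, 11 on 2 to 5 arrays, and Mx1 on 1. The other 9, Ifit1, Ifit3, Oas3, Oasl2, Cmpk2, Mx2, Parp12, Ifitm3 and Rtp4, were under it on every array, with a highest signal of 71.8. These are an RNA-binding pair, OAS family members, a nucleotide kinase, a dynamin-like GTPase, an ADP-ribosyltransferase, a membrane protein that blocks viral entry and a receptor transporter. Genes of the set above the floor numbered 29 at 12 h and 30 at 24 h when TGF-β was given with SP600125, 30 at 12 h and 28 at 24 h when it was given alone, 27 with SP600125 alone and 24 in unstimulated cells. The genes named at the floor are often used as markers of an interferon response, and in these cells their signals were under the floor in every condition.

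The ISRE core and the related GAS element, which STAT dimers bind, were looked for in the promoters that RefSeq gives for mouse build GRCm38.p6, from 250 bases before to 50 after each transcription start. Promoters were there for 29 of the 42 genes. The ISRE core was searched as GAAA, any 2 bases and GAAA and the GAS element as TTCNNNGAA, on both strands, and the 2 overlapped in 2 promoters, those of Bst2 and Ifitm3. At least 1 ISRE core lay in 15 of the 29 genes, or 51.7%, against 3.99% of 27025 genes, and a GAS element in 9 of 29, or 31.0%, against 9.55%. A match is a run of letters and not a shown binding site.

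Matches were found both in genes that rose and in genes that did not. An ISRE core was present in 3 of the 9 genes with a promoter that rose, Ddx58, Ifih1 and Trim30a, and in 12 of the 20 others. Among the genes under the floor on all arrays it was present in 4 of 7, Ifit1, Ifit3, Ifitm3 and Oas3. The windows below are those of the 3 that rose and of Ifit1 and Ifit3, members of 1 family on chromosome 19 with 2 matches each and signals under the floor. Capitals mark the ISRE core on the gene's strand or its reverse complement, and each is written 5′ to 3′ on the strand of the gene.
Ddx58, chr4:40239804-40239833 (minus strand): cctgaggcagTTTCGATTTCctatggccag
Ifih1, chr2:62646206-62646235 (minus strand): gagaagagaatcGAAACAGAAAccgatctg
Trim30a, chr7:104465194-104465353 (minus strand): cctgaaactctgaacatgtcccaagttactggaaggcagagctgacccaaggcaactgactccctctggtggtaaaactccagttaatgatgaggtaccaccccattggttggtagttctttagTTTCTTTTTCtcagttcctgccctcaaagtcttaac
Ifit1, chr19:34640729-34640888 (plus strand): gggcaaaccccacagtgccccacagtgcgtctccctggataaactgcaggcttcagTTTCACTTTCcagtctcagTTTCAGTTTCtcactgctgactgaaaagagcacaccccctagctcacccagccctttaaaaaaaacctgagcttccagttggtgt
Ifit3, chr19:34583369-34583528 (plus strand): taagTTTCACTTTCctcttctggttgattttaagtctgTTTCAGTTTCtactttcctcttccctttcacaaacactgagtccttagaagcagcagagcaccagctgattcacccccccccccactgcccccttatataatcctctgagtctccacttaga
In Ddx58 and Ifih1 the match is just inside the transcribed part, at 3 and 33 bases from the start, and in Trim30a it begins at −36. In Ifit1 the matches begin at −104 and −85 and in Ifit3 at −156 and −122.

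In each drug arm the signal at 12 h and 24 h of TGF-β was set against that arm's own 0 h array. These pairs have no test. Effects with a test come from limma, from an additive model of TGF-β time and drug over all 6 arrays, fitted on 11698 genes that were above the floor on at least 2 arrays. It gives a TGF-β effect averaged over both arms, with a standard error after ±, and its error is how far arrays depart from an additive pattern. "Rose" and "fell" are used of a Benjamini-Hochberg adjusted p under 0.05 over all genes tested, and "higher" and "lower" of single arrays. Of the 42 genes, 32 were tested. Dhx58, Gbp2, Usp18 and Zbp1 were at the floor on both unstimulated arrays and could enter the test only through the TGF-β arrays.

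Part of the set rose with TGF-β and none of it fell. In limma 5 of the 32 tested genes rose at 12 h and 0 fell, where 2.74% of all genes tested rose and 2.5% fell. At 24 h 14 rose and 0 fell, where 9.16% of all genes rose and 7.59% fell. The median log2 effect over the tested genes was 0.28 at 12 h and 0.73 at 24 h, against 0.02 and 0.07 over all genes. Among the 21 genes above the floor on all 6 arrays, where the floor plays no part, 4 rose at 12 h and 10 at 24 h, or 19.0% and 47.6%, against 3.16% and 10.8% of all 9120 such genes.

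The counts depended on single arrays. With any 1 array left out, limma called 0 of the tested genes at 12 h, and 8 to 14 of them had an unadjusted p under 0.05. Over all genes it then called 33 risen without unstimulated cells, 56 without SP600125 alone and 0 without any of the other 4 arrays. At 24 h it called 0 without the array of TGF-β plus drug at 24 h and 0 without that of TGF-β alone at 24 h, with 16 and 14 at an unadjusted p under 0.05, and 0 of all genes tested in both fits. Without SP600125 alone, without either 12 h array or without unstimulated cells it called fewer genes of the set than with all arrays. Over all genes tested it then called fewer as well. The median 24 h effect, 0.73 with all arrays, was 0.76 without the array with 18S at 5878, 0.48 without unstimulated cells and 0.87 without SP600125 alone. How many of all genes had an unadjusted p under 0.05 was not counted, so the set's counts at that level have no comparison. The p-values reflect only how these 6 arrays scatter, which may be technical, and the number of arrays limits the precision.

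**Figure D1:**
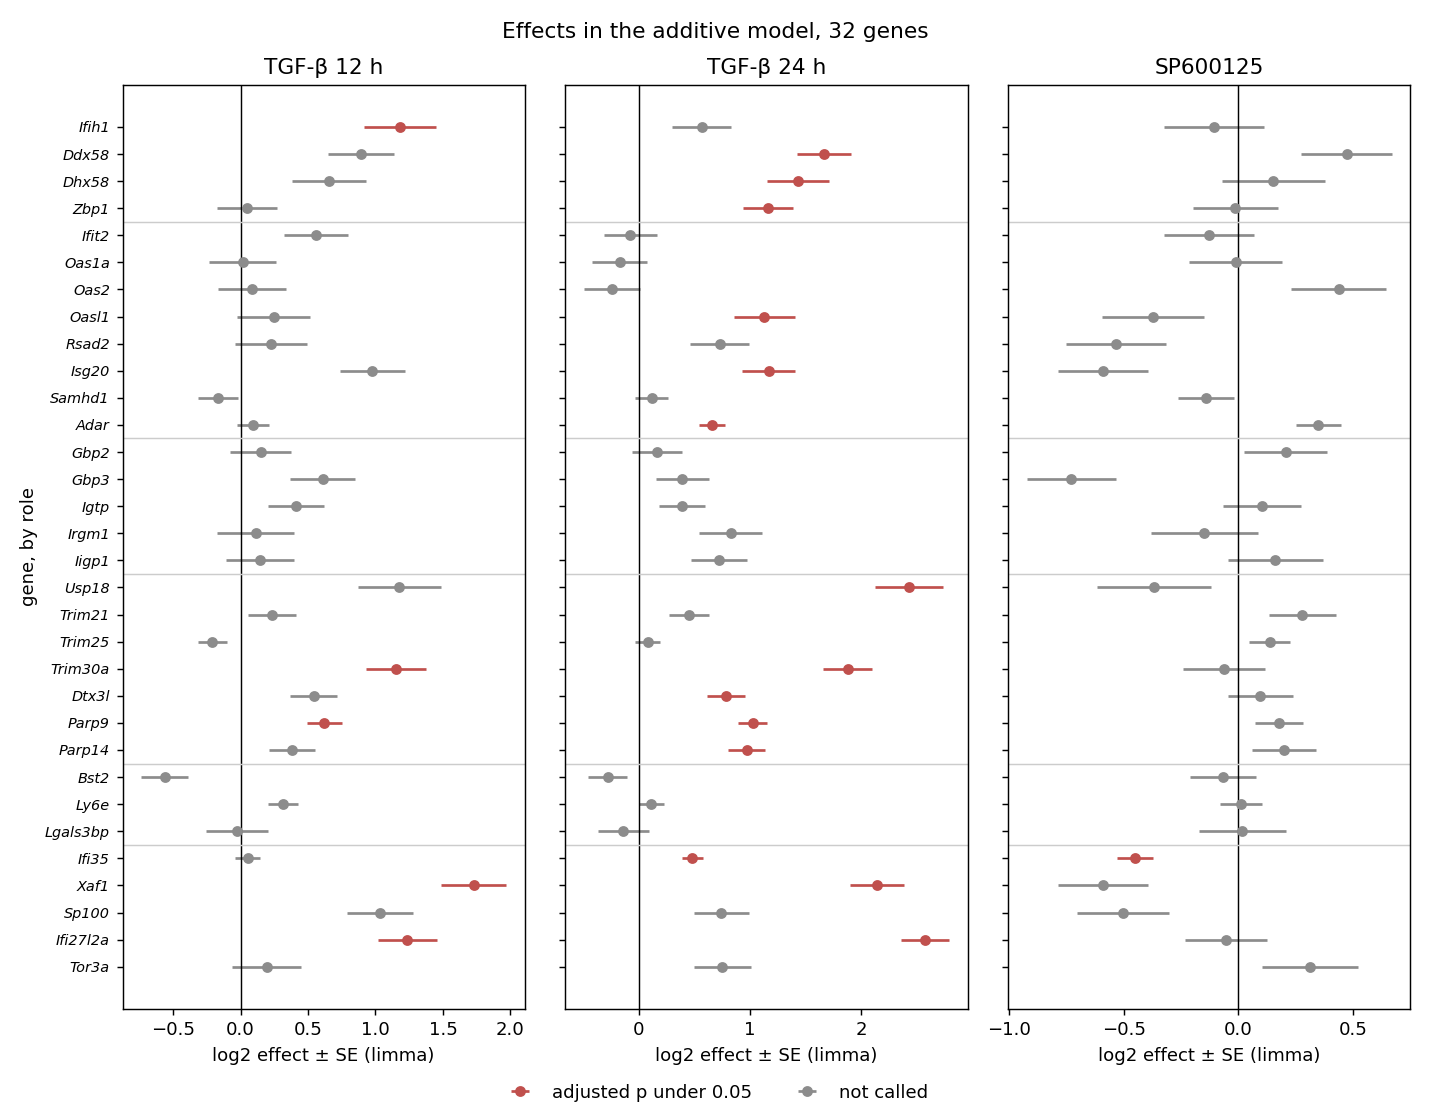
Log2 effects ± SE from the additive limma model for the 32 tested genes, grouped by role in the order of the text: 12 h of TGF-β, 24 h of TGF-β, and SP600125. Red points passed an adjusted p of 0.05: 5 genes at 12 h and 14 at 24 h, all to the right of 0, and 1 gene, Ifi35, to the left of 0 for SP600125.

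Of the 4 cytosolic sensors 1 rose at 12 h and 3 at 24 h. Ddx58, which encodes RIG-I, a sensor of viral RNA ends, had signals of 102, 181.5 and 344 at 0 h, 12 h and 24 h with SP600125, against 73.9, 144 and 223 without it. The signal was higher at each later time in both arms, and each array with drug was above its partner. It rose by 1.67 ± 0.24 at 24 h, with a limma adjusted p of 0.00485, and had 0.89 ± 0.24 at 12 h, which did not pass. A further Ddx58 probe set was above the floor only at 24 h with drug, at 100, and another was under it on every array. Dhx58, which encodes LGP2, a RIG-I-like protein with no signalling domain, had 15.3, 146 and 188 with SP600125 and 57.7, 93.6 and 213 without. Both unstimulated arrays were under the floor and all TGF-β arrays over it, and at 24 h the signal was at least 2.54-fold higher with drug and at least 2.88-fold higher without. It rose by 1.43 ± 0.28 at 24 h. A further probe set of Dhx58, under the floor on 3 arrays, was higher by at least 0.52 on the log2 scale in the 24 h pair with drug and at the floor on both arrays of the pair without.

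Ifih1, which encodes MDA5, a sensor of long double-stranded RNA, was highest at the earlier time. Its signals were 89.3, 179 and 102 with SP600125 and 68.5, 191 and 143 without. In both arms the 24 h array lay between the 0 h and 12 h arrays. It rose by 1.18 ± 0.27 at 12 h, with an adjusted p of 0.0457 in limma, and had 0.57 ± 0.27 at 24 h. The call at 12 h was kept in 1 of the 7 other settings, and the difference of 24 h from 12 h, −0.62 ± 0.27, had an adjusted p of 0.324 in limma. Zbp1, a sensor of Z-form nucleic acid that can start cell death, had 15.3, 25.8 and 169.9 with SP600125 and 8.0, 79.2 and 163 without. It was near or under the floor up to 12 h and clear of it at 24 h in both arms, where it rose by 1.17 ± 0.22. The size of that effect depends on the floor and was 3.04 with the floor at the 25th percentile. A second Zbp1 probe set was under the floor on every array, at 12.1 with drug and 13.4 without at 24 h.

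In the ISG15 and ubiquitin group, Usp18, the protease that removes ISG15 and also blocks the interferon receptor, had 52.0, 162 and 283 with SP600125 and 61.6, 174 and 565 without. The arms were close together up to 12 h and apart at 24 h. The signal at 24 h was at least 3.82-fold higher with drug and at least 7.62-fold higher without, and Usp18 rose by 2.43 ± 0.31 with an adjusted p of 0.00298 in limma. Trim30a, a TRIM protein described in mouse as a brake on NF-κB signalling, had 227.5, 625 and 871 with SP600125 and 281, 503 and 997 without. It climbed in both arms, and rose by 1.15 ± 0.22 at 12 h and 1.88 ± 0.22 at 24 h. A second Trim30a probe set was higher by 1.52 with drug and 2.46 without at 24 h, and a further one is listed under Trim30d as well, so signal from that close relative cannot be told apart there.

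Dtx3l, a ubiquitin ligase, Parp9, its partner, and Parp14, an ADP-ribosyltransferase, lie next to one another on chromosome 16 in the GRCm38.p6 gene order. All 3 rose at 24 h, by 0.78 ± 0.17, 1.03 ± 0.13 and 0.97 ± 0.17, and Parp9 also at 12 h, by 0.62 ± 0.13. Parp9 had 1463, 2007 and 2940.3 with SP600125 and 1188, 2048 and 2447 without. Each later Parp9 array was above the earlier ones of its arm. Parp14 had 717, 827 and 1224 with SP600125 and 525, 775 and 1180.0 without. Dtx3l had 1463, 1711 and 2037 with SP600125 and 1026, 1859.9 and 2184 without. In each of the 3 genes SP600125 alone was above unstimulated cells, by a log2 of 0.30 for Parp9, 0.45 for Parp14 and 0.51 for Dtx3l, and the arms drew level at 12 h. A second Dtx3l probe set had 1911 with drug against 1435 without at 12 h, where it was higher by 0.47 in both arms. Of the 7 tested genes of this group 2 rose at 12 h and 5 at 24 h. Trim21, an antibody receptor and ubiquitin ligase, and Trim25, the ligase that activates RIG-I, had 0.45 ± 0.18 and 0.08 ± 0.11 at 24 h and did not pass.

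Antiviral effectors that act on RNA divided into 3 genes that rose and a larger number that did not. Isg20, an exonuclease, had 169, 339.9 and 328 with SP600125 and 234, 451 and 610.0 without. Every array with drug was below its partner, and Isg20 rose by 1.17 ± 0.24 at 24 h. Oasl1, an OAS-like protein without synthetase activity that restrains Irf7 translation in mouse, had 84.7, 124 and 178 with SP600125 and 123, 118 and 280.0 without. The 24 h arrays were the highest of both arms, and it rose by 1.13 ± 0.27 at 24 h. Adar, which edits adenosine to inosine in double-stranded RNA, had 1542, 1643 and 2414 with SP600125 and 1203, 1281 and 1917 without, and rose by 0.66 ± 0.12 at 24 h. In this probe set the 12 h arrays were level with the unstimulated ones, and both arms had the same shape with the drug arm above. The other Adar probe sets differed at 12 h: one was higher by 0.80 with drug and 0.61 without, and another by 0.91 and 0.12. In the first of these every array with drug was below its partner. The other had 272, 511 and 447 with SP600125 and 335, 362.5 and 454 without. With the mean of probe sets Adar was not called at 24 h.

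Of the 13 genes in this group 8 were tested, and 0 rose at 12 h and 3 at 24 h. Ifit2, which binds RNA, was above the floor on every array and had 0.56 ± 0.24 at 12 h and −0.07 ± 0.24 at 24 h. Ifit2 and Ifit3 are neighbours on chromosome 19, and Ifit3 was under the floor on all arrays. In the same way Oasl1 rose while its neighbour on chromosome 5, Oasl2, was under the floor throughout. Oas1a and Oas2, which make the 2-5A messenger that activates RNase L, were above the floor on 2 and 4 arrays and had −0.17 ± 0.25 and −0.24 ± 0.25 at 24 h. Rsad2, which encodes viperin, had 0.73 ± 0.27 at 24 h and did not pass. Samhd1, which degrades deoxynucleotides, had 0.12 ± 0.15, and its probe sets disagreed: in the 24 h pair without drug one was at −0.97 and another at 0.76.

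Of the 5 tested GTPases 0 rose at either time. Irgm1, which organises vesicle defence against intracellular microbes, had 167, 132 and 249 with SP600125 and 134, 197.5 and 283 without. The 24 h arrays were the highest of each arm, and at 24 h it was 1.49-fold higher with drug and 2.11-fold higher without, with 0.83 ± 0.29 in limma. Iigp1, a GTPase that attacks parasite vacuoles, had 57.5, 91.0 and 156 with SP600125 and 83.5, 83.2 and 108 without, and 0.72 ± 0.25 in limma at 24 h. Gbp3, a guanylate-binding protein, had 238, 299 and 297.5 with SP600125 and 335, 621 and 463 without. Each array with drug was lower than its partner, by 2.08-fold at 12 h, and the drug effect of −0.73 ± 0.19 had an adjusted p of 0.0610 in limma. Igtp had 0.39 ± 0.21 at 24 h, and Gbp2, above the floor on 2 arrays, had 0.16 ± 0.22.

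Of the 3 tested membrane and secreted factors 0 rose. Bst2, or tetherin, which holds budding virus at the cell surface, had 911, 734 and 844 with SP600125 and 1157, 658 and 851 without. All 4 TGF-β arrays were below both unstimulated arrays, against the direction of most of the set, and the effects of −0.56 ± 0.18 at 12 h and −0.28 ± 0.18 at 24 h did not pass. Ly6e, a membrane-anchored restriction factor, had 0.31 ± 0.11 at 12 h and 0.12 ± 0.11 at 24 h. Lgals3bp, a secreted glycoprotein, was above the floor on 2 arrays, 1 in each arm.

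Among the remaining genes, Ifi27l2a, a small mitochondrial membrane protein, had the largest 24 h effect of the tested genes with the floor at 74.2, while with the floor at the 25th percentile Zbp1, at 3.04, and Usp18, at 2.82, were above it. Its signals were 224, 687 and 1527 with SP600125 and 303, 548 and 1577 without. The 3 times were well apart in both arms and the arms close together at 24 h. Ifi27l2a rose at 12 h, by 1.24 ± 0.22, and at 24 h, by 2.58 ± 0.22, the second with an adjusted p of 0.000703 in limma. Xaf1, a partner of the apoptosis inhibitor XIAP, had 87.1, 257 and 372 with SP600125 and 118, 441 and 543 without. Most of its change was there by 12 h, and it rose by 1.73 ± 0.24 at 12 h and 2.15 ± 0.24 at 24 h, while every array with drug was below its partner. A second Xaf1 probe set, above the floor on 2 arrays, was under it on both 0 h arrays and was higher by at least 0.39 with drug and at least 0.03 without at 24 h.

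Ifi35 had 3675, 3824 and 5109.6 with SP600125 and 5026, 5188 and 7038 without. It rose by 0.48 ± 0.09 at 24 h and fell by 0.45 on the log2 scale with SP600125, lower in 3 of 3 pairs, with an adjusted p of 0.0136 in limma. These values come from a probe set that can match several transcripts, and with such probe sets left out the effects were 0.16 and −0.44 and neither passed. Sp100, a nuclear body protein, had 243, 423.5 and 319 with SP600125 and 263, 631 and 563 without. It was highest at 12 h in both arms and its effects, 1.03 ± 0.25 at 12 h and 0.74 ± 0.25 at 24 h, did not pass, with adjusted p of 0.0526 and 0.0759 in limma. A second Sp100 probe set had 87.0, 183 and 147 with SP600125 and 124, 226 and 309 without, so the peak at 12 h was not seen in it without drug. Tor3a, an ATPase of the endoplasmic reticulum, had 275, 257 and 389 with SP600125 and 172, 241 and 346 without, and 0.75 ± 0.26 in limma at 24 h.

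**Figure D2:**
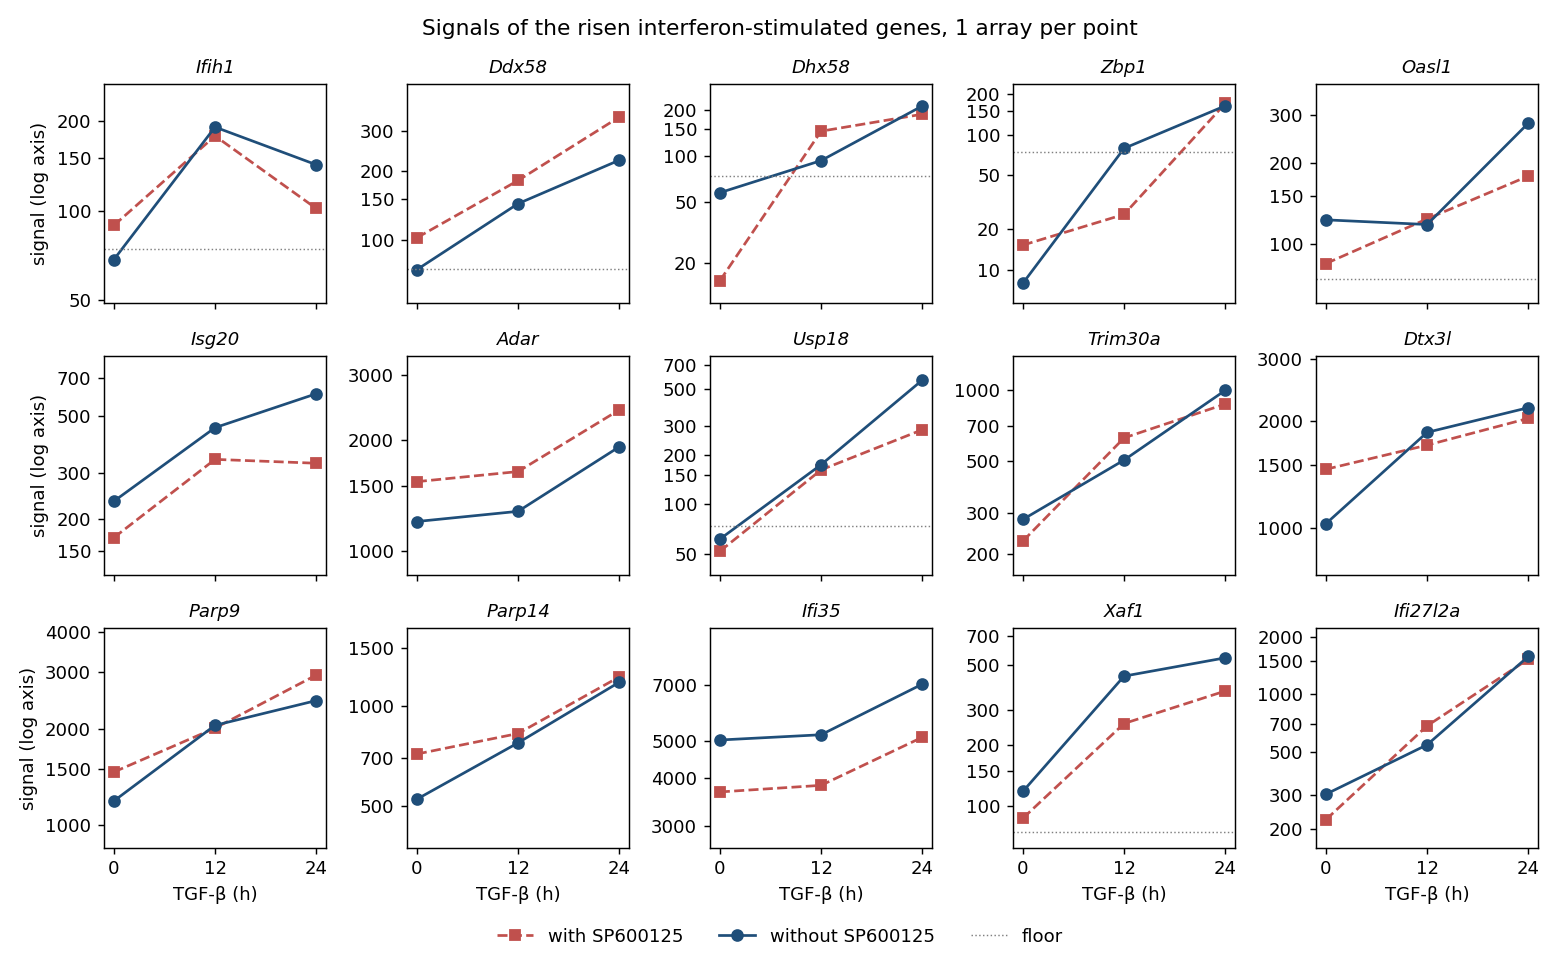
Signals of the 15 genes that rose at 12 h or 24 h, on a log axis, against hours of TGF-β, with SP600125 (red squares) and without (blue circles); each point is 1 array and the dotted line is the floor of 74.2. Most genes climb through 24 h in both arms, Ifih1 is highest at 12 h, and Zbp1 is over 150 only at 24 h.

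In all 14 genes that rose at 24 h the 24 h effect was larger than the 12 h effect. They were picked by their 24 h effect, which favours that order. Ifih1, which rose only at 12 h, had 1.18 at 12 h and 0.57 at 24 h. Of the 14, Ifi27l2a, Parp9, Trim30a and Xaf1 had risen at 12 h too. The difference between 24 h and 12 h was tested in the additive model after the values had been seen. It was above 0 in 23 of the 32 tested genes, with a median of 0.35 against 0.04 over all genes. In limma 0 of the 32 genes passed, where 0.0684% of all genes rose and 0.0256% fell. An unadjusted p under 0.05 was found in 15, a share not counted over all genes. Ifi27l2a, with 1.34 ± 0.22, had an adjusted p of 0.0629, and Zbp1, with 1.12 ± 0.22, had 0.0862.

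By the 2-fold rule of the study, 6 genes were higher at 12 h with SP600125 and 10 at 24 h, of 32 above the floor on at least 1 array of the pair each time. Without drug 4 of 31 were higher at 12 h and 15 of 29 at 24 h. Over all genes the shares higher were 2.51% and 4.54% with drug and 3.32% and 5.57% without. None of the set was 2-fold lower in these pairs, where 1.31% and 1.96% of all genes with drug and 1.49% and 1.95% without were. Usp18 and Xaf1 were 2-fold higher in all 4 pairs. At 24 h 9 genes were 2-fold higher in both arms, 6 only without drug (Dtx3l, Irgm1, Isg20, Parp14, Sp100 and Tor3a) and 1 only with it (Iigp1). Tor3a, at 2.01-fold without drug, was just past the limit. How all genes divided between the arms was not counted, so these counts have no comparison.

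The study picked out inductions that SP600125 reduced by over 75%, and the same limit was applied here after the values had been seen. Taking the induction as the increase in signal above the unstimulated array of the arm, 0 of the 16 genes 2-fold higher without drug passed that limit. The share of all genes that pass it was not counted, so this count has no comparison. Sp100 came nearest, with a reduction by 74.8% at 24 h and by 51.1% at 12 h. Isg20 was reduced by 57.7% and Dtx3l by 50.4% at 24 h, and Usp18 by 57.5% with its 0 h arrays set to the floor. At 24 h Ddx58, Zbp1, Parp9 and Ifi27l2a had a larger increase with the drug. The increases of Ddx58 without drug and of Zbp1 in both arms are lower bounds.

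**Figure D3:**
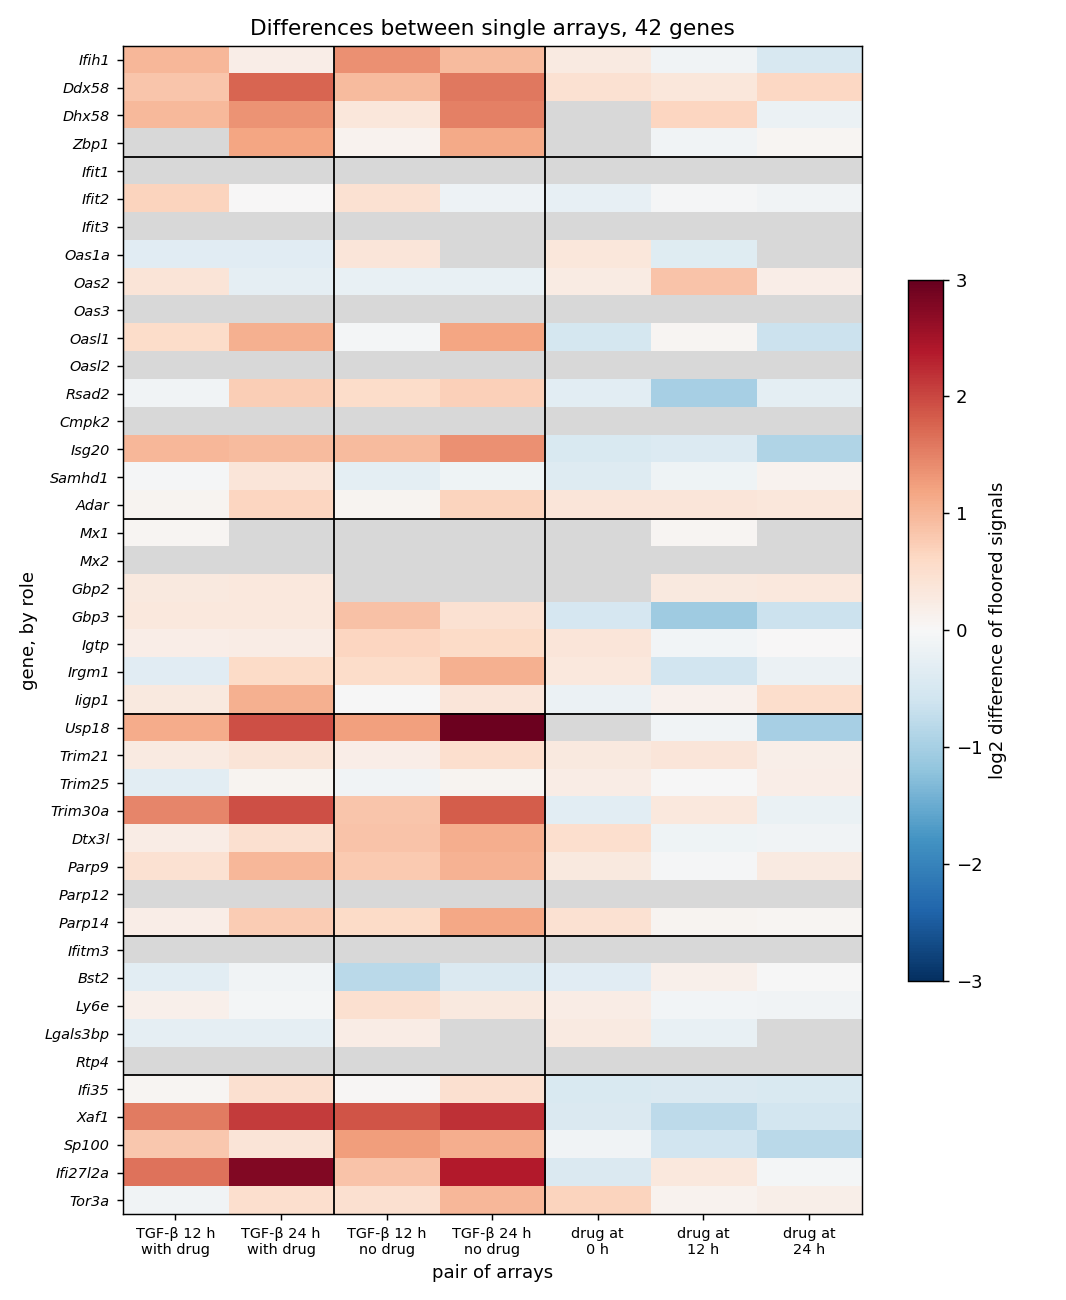
Log2 differences between single arrays for the 42 genes, rows by role and columns by pair: TGF-β against the 0 h array of its arm, with and without SP600125, then SP600125 against no drug at 0 h, 12 h and 24 h. Grey marks pairs with both arrays at the floor; the 24 h columns hold the deepest red, with Usp18 at 2.93, a lower bound, without drug and Ifi27l2a at 2.77 with it, and the 3 drug columns are pale.

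The median difference over the genes above the floor was 0.28 at 12 h and 0.49 at 24 h with SP600125, against 0.48 and 1.003 without, over 29 to 32 genes that are not the same in each pair. Over all 42 genes they were 0.12 and 0.35 with drug and 0.21 and 0.48 without, and with the mean of probe sets the 24 h medians were 0.44 with drug and 0.57 without. The medians over all genes were 0.01 and 0.07 with drug and 0.05 and 0.07 without. They were taken over genes above the floor on at least 1 array of the pair, as were the first medians here. Of the 14 genes that rose at 24 h, 10 had both 0 h arrays above the floor. Of these 8 had the larger 24 h difference without drug and 2, Ifi27l2a and Trim30a, with it. Among the 8 some were nearly level with and without drug: Ifi35 at 0.48 and 0.49, Adar at 0.65 and 0.67, Parp9 at 1.01 and 1.04, and Xaf1 at 2.09 and 2.20. Trim30a, at 1.94 and 1.83, was close too. This order was not counted over all genes, so the count has no comparison. For Dhx58, Usp18 and Zbp1 both 0 h arrays were under the floor, so the differences are lower bounds and the arms have no order. For Ddx58 only the unstimulated array was, at 73.9, and the difference was at least 1.59 without drug and 1.75 with it. For Dtx3l, at 0.48 and 1.09, and Parp14, at 0.77 and 1.17, the smaller difference with drug came with a higher drug-alone array, while their 24 h signals differed little between arms. For Isg20, at 0.96 and 1.38, and Usp18 the 24 h signal itself was lower with drug, 1.86-fold and 2.00-fold.

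Whether the TGF-β effect differs with the drug was tested in limma by pooling the 12 h and 24 h arrays of an arm into 1 TGF-β state. In that model 0 of the 32 genes passed, where 0% of all 11698 genes passed in either direction. An unadjusted p under 0.05 was found in 0 of the 32, a share not counted over all genes. The effect of TGF-β on Usp18 with drug minus that without was −0.55 on the floored scale, with a 95% interval from −3.42 to 2.32, since the change between 12 h and 24 h counts as error there. For Dtx3l it was −0.62, from −1.37 to 0.13, and for Ifi27l2a 0.58, from −2.29 to 3.45. In 10 of the 15 genes that rose the interval passed 2-fold in both directions, so the arms are not shown to be alike.

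**Figure D4:**
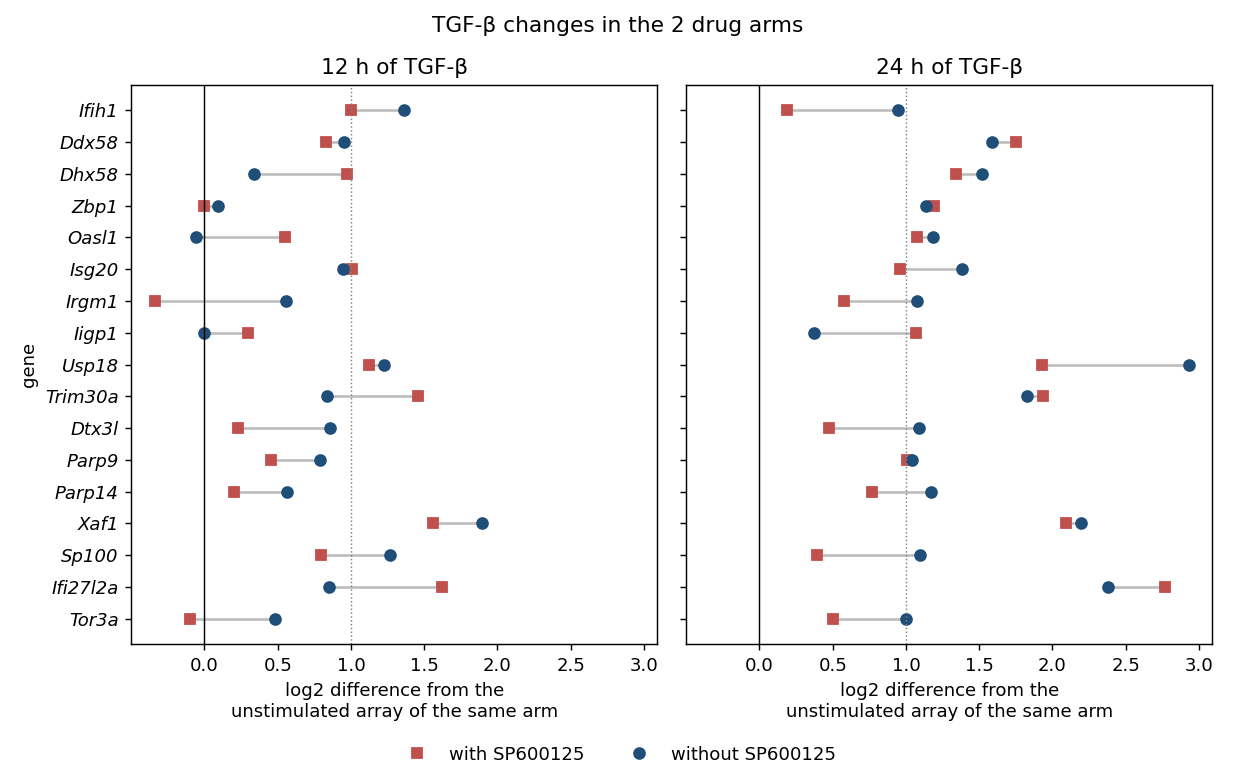
Log2 difference of TGF-β at 12 h and 24 h from the 0 h array of its arm, with SP600125 (red squares) and without (blue circles), for the 17 genes at least 2-fold higher (dotted line) in 1 of the 4 pairs. Points whose 0 h array is under the floor, such as those of Dhx58, Usp18 and Zbp1, are lower bounds; at 24 h Trim30a, Parp9 and Xaf1 have both points close together.

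Calls for SP600125 in the set were too few to compare with the shares over all genes. In limma 0 of 32 genes rose and 1, Ifi35, fell, where 4.15% of all genes rose and 3.76% fell. An unadjusted p under 0.05 was found in 8 of 32, a share not counted over all genes. No gene of the set was 2-fold higher or lower with SP600125 in unstimulated cells, where 3.2% and 1.32% of all genes were. At 12 h of TGF-β 0 were higher and 1, Gbp3, was lower, against 1.81% and 1.12%, and at 24 h 0 were higher and 0 lower, against 3.14% and 1.93%. Usp18, at −0.998 at 24 h, was just short of that limit.

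The rest of the interferon pathway was read from a list of 43 genes, of which 39 had a probe set and 30 were tested. At 12 h 5 of the 30 rose and 0 fell, where 2.74% of all genes rose, and at 24 h 10 rose and 0 fell, where 9.16% did. Irf7, the factor that amplifies the interferon response, had 194, 676 and 825 with SP600125 and 96.8, 498 and 824 without. It climbed in both arms and rose at 12 h, by 2.08 ± 0.27, and at 24 h, by 2.59 ± 0.27, with an adjusted p of 0.00159 in limma at 24 h. Irf9, the DNA-binding partner of the STAT proteins, had 266, 744 and 913 with SP600125 and 198, 444 and 776 without, and rose by 1.33 ± 0.21 and 1.88 ± 0.21. Irf5, Sting1, an adaptor of DNA sensing, and Ifngr2, a receptor chain for interferon gamma, also rose at 12 h. Ticam1, Il10rb, Irf1 and Jak2 rose at 24 h by 0.85 to 0.94.

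The interferon genes themselves were low. Ifna2, Ifna4, Ifna5 and Ifng were under the floor on all arrays and Ifna1 was above it on 1, SP600125 alone, at 81.0. Ifnb1, named here after its values were seen, had 97.6, 71.9 and 109 at 0 h, 12 h and 24 h with SP600125 and 83.1, 87.5 and 109.9 without. The signals stayed close to the floor, and the effects of −0.16 ± 0.24 at 12 h and 0.28 ± 0.24 at 24 h did not pass in limma. With SP600125 2 of the 30 fell and 0 rose, where 3.76% and 4.15% of all genes did: Ifngr2 fell by 0.997 on the log2 scale and Sting1 by 0.49.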

How the data were processed

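The deposited table holds 1 linear intensity for each probe set and array of 6 Affymetrix whole-genome mouse arrays, made by the authors with GCOS 1.2, per the submitters' processing notes; no settings were recorded in the labels. The 2% trimmed mean was 500.0 on every array, so the values were used as deposited. Of 45101 probe sets 34958 had 1 symbol in the platform annotation, 932 had several and 9211 were not listed. A gene was its probe set with the highest mean log2 signal. Signals under the 50th percentile, 74.2, were floored, so differences of dim genes are understated. limma 3.58.1 in R 4.3.3, with eBayes and an intensity trend, gave an additive model with 2 residual and 6.09 prior degrees of freedom, and a TGF-β by SP600125 model with 2.84 prior degrees of freedom. The method was tested on simulated data.

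Groups came from the sample titles. The genes and lists were chosen with earlier results of these data known. Signals on all arrays were to be given for genes called or 2-fold different in at least 1 pair, and of the pathway list up to 6 called genes per contrast were to be named. Alternatives were median and quantile scaling, a floor at the 25th percentile, the mean of probe sets, leaving out probe sets that can match several transcripts, no filter, no trend, and each array left out. The 24 h to 12 h contrast and the reductions under the study's 75% limit were added after seeing the data. Gene names and promoters are RefSeq's.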

Additional observations from a re-analysis of the deposited data

Results flagged for a closer look

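A pair of probe sets that the comparisons did not use, because the annotation lists each under several genes, were above the floor of 74.2. The probe set listed under Isg15 and Gm9706 had 96.9, 247.5 and 209.9 at 0 h, 12 h and 24 h with SP600125 and 155.5, 131 and 262.7 without. Its highest signal was on the array of TGF-β alone at 24 h, and the 12 h arrays of the arms stood on opposite sides of their unstimulated arrays. The probe set listed under Trim30d and Trim30a had 131.0, 212.4 and 188 with SP600125 and 59.5, 108 and 188.5 without, with all 4 TGF-β arrays above the unstimulated array of their arm. Which gene gave these signals cannot be told apart.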

How the results depend on the processing

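With 1 array per condition, the tests rest on 2 residual degrees of freedom. The count of genes that rose at 24 h, 14, was 14 under median and quantile scaling, 13 with the floor at the 25th percentile and 13 without probe sets that can match several transcripts, 10 with the mean of probe sets, 10 without a trend, and 0 with no filter, where 2 genes rose and 1 fell of all 18194 tested and the prior degrees of freedom were 0.618. With no filter the interaction was called up in 176 and down in 219 of all genes, against 0 and 0, and in 0 of the set. At 12 h, where 5 rose, the count was 0 with the mean of probe sets, 0 with no filter and 1 without a trend. For SP600125, where 1 fell, it was 2 under median and quantile scaling, and 0 with the mean of probe sets, without probe sets that can match several transcripts, with no filter and without a trend. Leaving out each array gave 0 to 7 at 24 h, 0 at 12 h and 0 fallen with SP600125. By the 2-fold rule 7 genes were higher at 12 h without drug with the 25th percentile floor, and 6 with drug and 9 without at 24 h with the mean of probe sets. The causes of these changes were not tested beyond the fewer arrays or larger number of genes in the settings named. Median scaling moved the median 24 h effect of all genes to −0.04 from 0.07 and the calls over all genes to 680 risen and 1327 fallen from 1072 and 888, and those at 12 h to 231 and 450 from 320 and 292. For SP600125 they were 349 and 678 under median scaling, against 485 and 440. Of the single gene effects tried again in these settings, 141 lost their side of the threshold, more than kept it, and 0 turned direction. The interaction could not be estimated without either unstimulated array.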
